A study of Homo sapiens with 5 samples.

Results

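The MYC and PVT1 locus was taken as the window of 1000 kb on human chromosome 8 from 128200 to 129200 kb (genome build hg19), and its members were all SMAD2 ChIP-seq summits listed in that window. The window held 180 summits, which chained into 78 regions out of 115321 regions on chromosomes 1 to 22 and X. MYC was placed at 128748 to 128754 kb and PVT1 at 128806 to 129114 kb, both on the plus strand. These borders are rounded to the kilobase, so distances from a gene's start or end are good to about 1 kb. MYC encodes a transcription factor that drives growth and cell-cycle genes. PVT1 is a long non-coding RNA gene that hosts several microRNAs. In the RefSeq gene order (GRCh38.p14), CASC11 is the nearest gene before MYC, and the CASC8, CCAT2 and POU5F1B genes lie farther out. PVT1 is the next gene after MYC, and MIR1204, MIR1205, MIR1206, MIR1207 and MIR1208 follow its start.

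SMAD2 is a transcription factor that receptors of the activin and TGF-β family phosphorylate, after which it enters the nucleus with SMAD4. Repression of MYC by SMAD complexes is a classic part of the growth arrest that TGF-β causes in epithelial cells, and E2F proteins with the RB-related protein p107 take part in it at the MYC promoter. Far-upstream sequences in the 8q24 interval and sequences within PVT1 are known to act as enhancers of MYC in several cancers, and the PVT1 promoter can compete with MYC for them. CDK4 and CDK6, the kinases that palbociclib blocks, phosphorylate RB-family proteins.

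The cells were T47D, a human luminal, estrogen receptor-positive breast cancer line. Palbociclib libraries (n = 2) came from cells given 1 µM palbociclib for 24 h and 50 ng/ml activin A for 1.5 h. Activin libraries (n = 2) came from cells given 50 ng/ml activin A for 1.5 h alone. All 4 libraries thus share activin, and the fifth sample, an input of untreated cells, had no summit list analysed here. Separate cultures for the 2 replicates of a treatment are not stated, and p-values then measure only the spread between these samples, which may be technical. The lists held 62960 and 65207 summits in palbociclib replicates 1 and 2, and 51535 and 54243 in activin replicates 1 and 2. Each summit carries the authors' score, read as the −log10 q of the peak. Both scores and numbers of summits vary with a read depth that is unknown here. A position without a summit is not a position without SMAD2, because the lists give no peak width or signal.

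SMAD2 summits were dense across the locus as a whole but very unevenly placed within it. The window held 46 and 51 summits in palbociclib replicates 1 and 2, against 42 and 41 in activin replicates 1 and 2. Both palbociclib counts exceeded both activin counts, as in 45% of windows of 1 Mb with a summit in any list (exact permutation p = 0.333). Chromosome 8 averaged 17.2 and 17.8 summits per Mb in the palbociclib lists, and 14.2 and 14.7 in the activin lists. Windows of 1 Mb were tiled from the borders of the locus, and 2843 held a summit in any list. Of these, 87.4% and 88.4% held fewer summits than the locus in the palbociclib lists, and 89.3% and 87.8% in the activin lists. Of the 100 bins of 10 kb in the locus, 31 held a summit of any library and 69 held none.

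**Figure D1:**
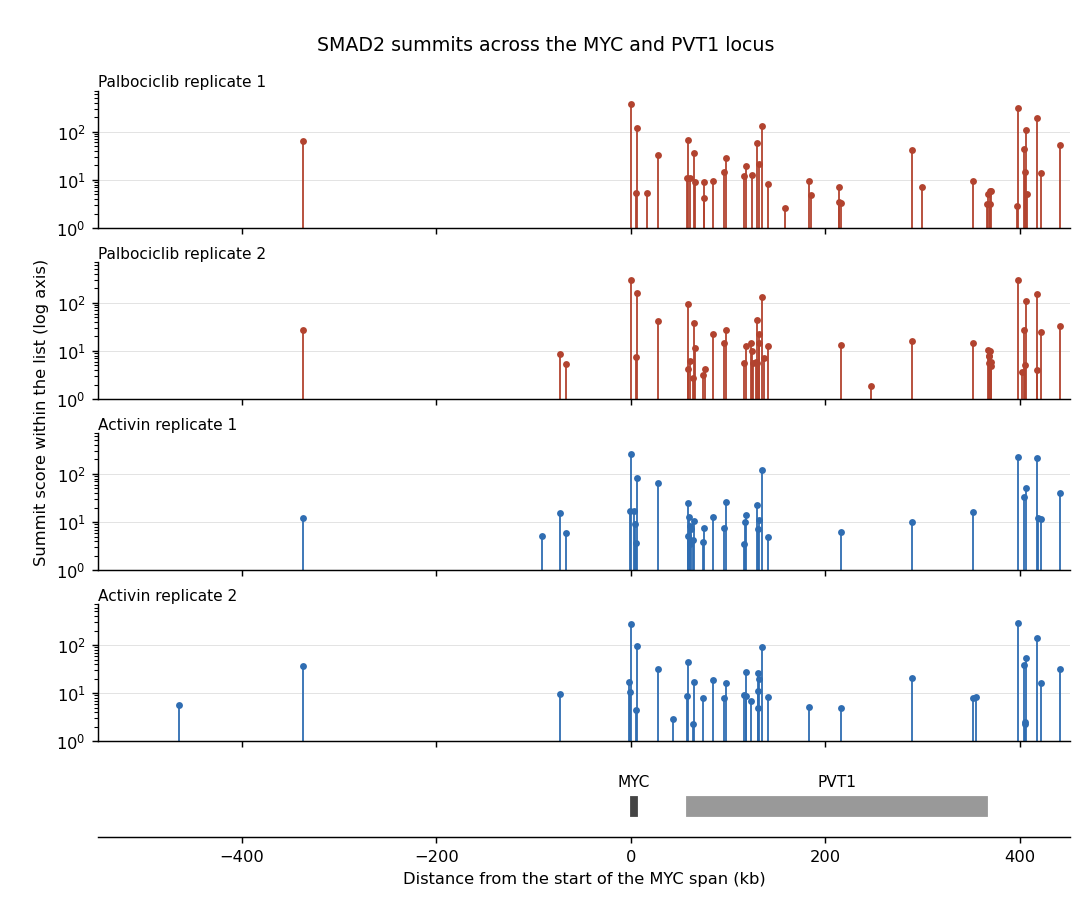
Each stem is 1 SMAD2 summit, placed by its distance from the start of the MYC span (kb) and by its score within its own list (log axis), with the MYC and PVT1 spans drawn underneath. The 4 libraries share tall stems at the MYC start and downstream of PVT1, a comb of lower stems in the first 100 kb of PVT1, and a nearly empty upstream side.

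The stretch before MYC, 543 kb wide, made up 54.3% of the locus and held 6.11% of its summits, 11 in all. Palbociclib replicates 1 and 2 had 1 and 3 summits there, and activin replicates 1 and 2 had 4 and 3. The groups overlapped, at 2.0 ± 1.4 with palbociclib and 3.5 ± 0.7 with activin (SD, n = 2 each; exact two-sided permutation p = 0.667). For comparison, 5039 windows of equal width held a summit in any list, this stretch among them. Their median was 7 summits in each palbociclib list and 6 in each activin list. The 3 widest empty stretches of the locus all lay here. The widest ran for 246 kb, from 337 to 91.3 kb before MYC, the next for 127 kb from 465 to 337 kb before it, and the third for 83.4 kb up to the outer border of the window.

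Of the 5 upstream regions, 1 was found in all 4 libraries, as were 20.4% of all regions on chromosomes 1 to 22 and X. It lay at 128410652 to 128410678, 337 kb before MYC, with all 4 summits inside 26 bp. Its scores were 63.4 and 27.0 in palbociclib replicates 1 and 2, against 12.3 and 37.4 in activin replicates 1 and 2. It ranked 8295 and 14717 in the palbociclib lists, and 21099 and 9094 in the activin lists. Activin replicate 1 had the weakest summit and palbociclib replicate 1 the strongest, and the values of the treatments overlapped. Nearer to MYC, a region starting 73.4 kb before it was found in palbociclib replicate 2 with a score of 8.6 and in activin replicates 1 and 2 with 15.2 and 9.46. A further region starting 66.8 kb before MYC had scores of 5.36 in palbociclib replicate 2 and 5.85 in activin replicate 1. The remaining upstream regions, starting 465 and 91.3 kb before MYC, were each in a single activin list. None of the 11 upstream summits was among the strongest 10% of its list.

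The start of MYC carried one of the strongest SMAD2 regions of the genome in all 4 libraries. The summits lay at 128748514 and 128748510 in palbociclib replicates 1 and 2, and at 128748512 and 128748524 in activin replicates 1 and 2. All 4 thus fell within 14 bp, about 0.51 to 0.52 kb after the rounded start of MYC. Their scores were 374 and 293 in the palbociclib lists, against 258 and 278 in the activin lists. They ranked 222 and 345 in the palbociclib lists and 218 and 178 in the activin lists, so each was within the first 0.529% of its list. By its least favourable list, the region took place 168 among the 23476 regions found in all libraries. Every library listed it, with and without palbociclib, and none had a higher-ranked summit within 5 kb of the MYC start.

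Around that summit, fewer of the weaker summits were listed with palbociclib. Within 5 kb of the MYC start, palbociclib replicates 1 and 2 listed 2 summits each, and activin replicates 1 and 2 listed 4 each. Both palbociclib counts were below both activin counts. Windows of 10 kb were tiled from the borders of this stretch, and 47202 held a summit in any list. Of these, 1306 (2.77%) had the same pattern. The median of these windows was 1 summit in each list, so they were mostly sparser than the MYC start. The exact permutation p was 0.333. With 2 libraries a group, no smaller p can be reached. One region, at 128746886 to 128747058 and 1.11 kb before the MYC start, was in both activin lists and neither palbociclib list. Its scores were 17.1 and 10.7 in activin replicates 1 and 2, and the nearest palbociclib summit was 1452 bp away, at the strong MYC summit. Over all regions, 2.22% were found in both activin lists and neither palbociclib list. Activin replicate 2 had another summit 1.44 kb before MYC, with a score of 16.8. Activin replicate 1 had further ones 3.09 and 3.84 kb after the start, with scores of 17.2 and 9.31. A region 4.85 kb after the start was found in palbociclib replicates 1 and 2 with scores of 5.45 and 7.48, and in activin replicate 2 with 4.57.

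**Figure D2:**
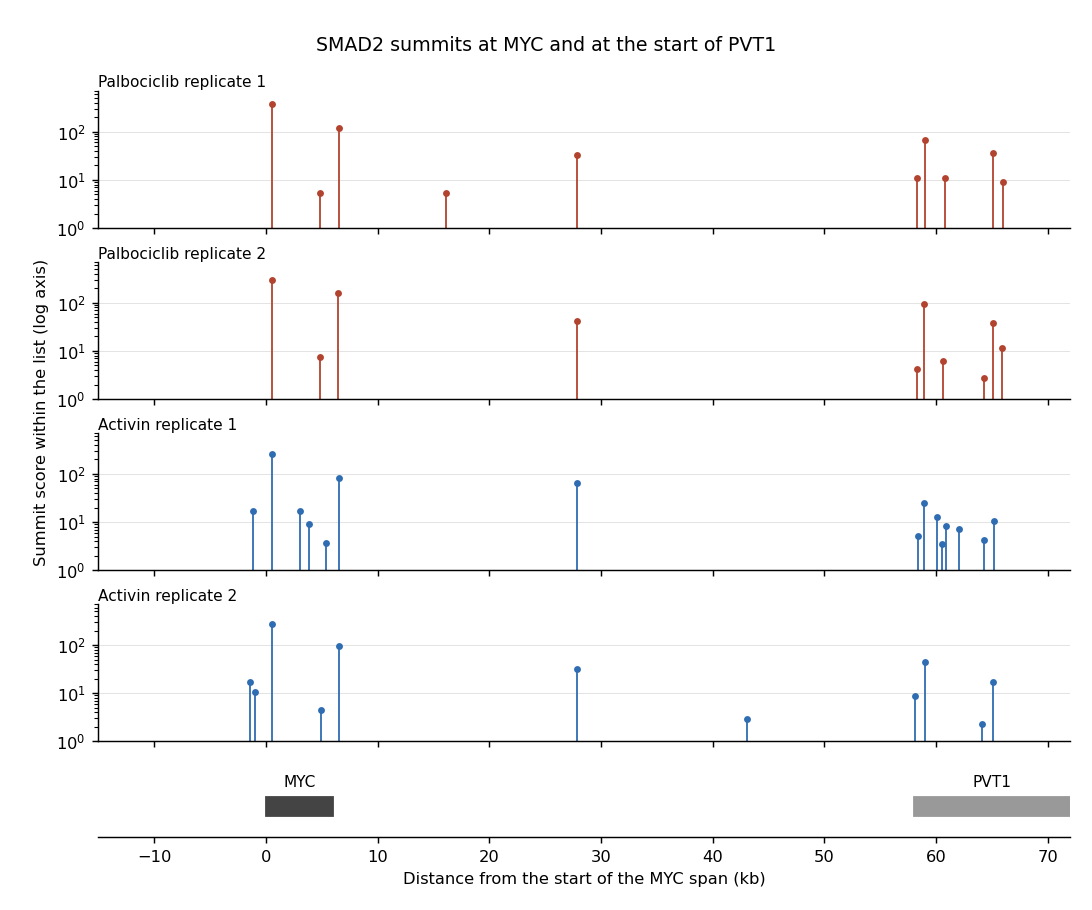
Summits from 15 kb before to 72 kb after the start of the MYC span, by distance (kb) and score within each list (log axis). The strong summit at the MYC start and the one just beyond the MYC end recur in every library, while the low stems beside the MYC start differ between libraries.

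Between MYC and PVT1, in a stretch of 53 kb, 2 of 5 regions were found in every library. Palbociclib replicates 1 and 2 had 3 and 2 summits, and activin replicates 1 and 2 had 3 each (2.5 ± 0.7 with palbociclib and 3.0 ± 0.0 with activin, SD, n = 2 each; exact permutation p = 1). The stronger region lay at 128754453 to 128754576, 6.45 kb after the MYC start and thus just beyond the rounded end of MYC. Its scores were 119 and 164 in the palbociclib lists, against 82.4 and 95.4 in the activin lists, and it ranked between 1810 and 3943 in the 4 lists. The other lay 27.8 kb after the MYC start, at 128775846 to 128775864. There the scores were 32.3 and 42.1 with palbociclib and 64.9 and 31.4 with activin, with activin replicate 1 above the other 3 libraries. The remaining 3 regions were each in a single list, with scores of 5.39 or lower.

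PVT1 held more than any other stretch, 101 of the 180 summits. Palbociclib replicates 1 and 2 had 26 and 28 summits in the PVT1 span, against 24 and 23 in activin replicates 1 and 2 (27.0 ± 1.4 with palbociclib and 23.5 ± 0.7 with activin, SD, n = 2 each). Both palbociclib counts exceeded both activin counts, as in 26.7% of windows of that width with a summit in any list (exact permutation p = 0.333). Expressed as a share of the whole list the groups overlapped, at 0.0413% and 0.0429% with palbociclib and 0.0466% and 0.0424% with activin. Of the windows of this width with a summit in any list, 93.6% to 95.0% held fewer summits, depending on the list. The density was 8.77 summits per 100 kb with palbociclib and 7.63 with activin.

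**Figure D3:**
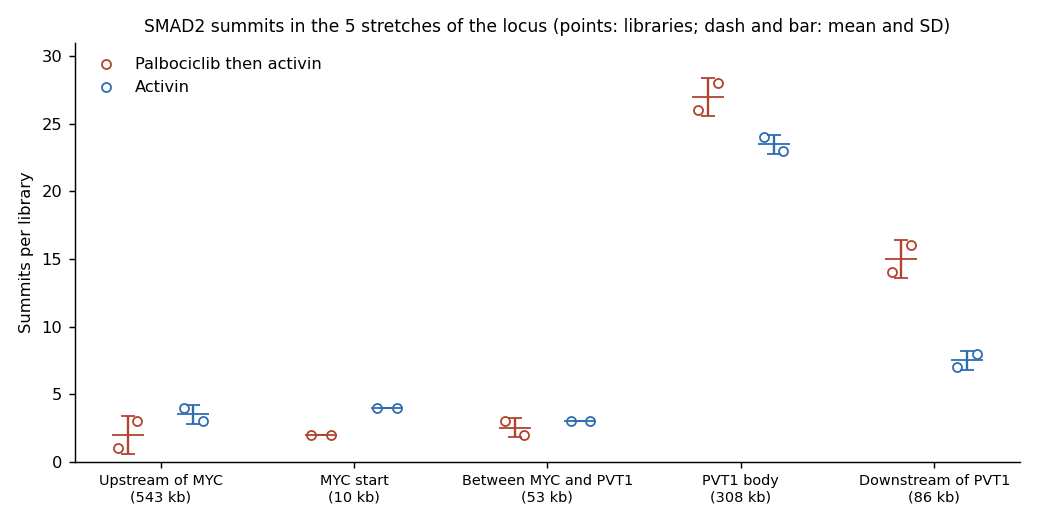
Number of SMAD2 summits per library (open points) in the 5 stretches of the locus, with the mean (dash) and SD (bar, n = 2). The points of both treatments lie apart at the MYC start, where palbociclib libraries had 2 each and activin libraries 4 each, in PVT1, and downstream of PVT1, where palbociclib libraries had 14 and 16 and activin libraries 7 and 8.

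Most of the PVT1 summits lay in the first 100 kb of the gene, a division made after their positions were seen. That part held 17 and 24 summits in palbociclib replicates 1 and 2, and 21 and 18 in activin replicates 1 and 2, so the treatments overlapped. The remaining 208 kb held 9 and 4 with palbociclib and 3 and 5 with activin. The density averaged over all libraries was 20.0 summits per 100 kb in the first part and 2.52 in the rest. Of the 15 PVT1 regions found in all libraries, 12 were in the first part. The bin of 10 kb with most summits in the whole locus, 15 in all, started at 128870 kb inside PVT1. It held 2 and 7 summits with palbociclib and 2 and 4 with activin, with the highest count in palbociclib replicate 2. Next came the bin starting at 129150 kb, downstream of PVT1, with 14 summits. The bins starting at 128800 and 128880 kb, at the PVT1 start and inside the gene, held 13 summits each.

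The strongest PVT1 region lay 77.0 kb into the gene, at 128882975 to 128882998. Its scores were 132 and 133 in palbociclib replicates 1 and 2, against 122 and 90.1 in activin replicates 1 and 2. It ranked 3347 and 2830 in the palbociclib lists and 1603 and 3165 in the activin lists. A shared region 72.2 kb into the gene, at 128878156 to 128878384, scored 57.8 and 43.9 with palbociclib and 23.0 and 25.8 with activin. The shared region 39.4 kb into PVT1 scored 28.0 and 26.7 with palbociclib, and 26.1 and 16.0 with activin. The one 60.3 kb into the gene scored 19.7 and 12.4 with palbociclib, and 14.0 and 27.8 with activin. Scores of different lists are not on 1 scale, so these pairs describe each list and not a difference in binding.

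At the start of PVT1, SMAD2 summits were present in all libraries but were weaker than at MYC. The summit nearest to the rounded PVT1 start lay 249 and 297 bp into the gene in palbociclib replicates 1 and 2, and 392 and 122 bp in activin replicates 1 and 2. Those summits scored 11.0 and 4.32 with palbociclib, and 5.11 and 8.82 with activin. The next region, at 128806908 to 128806981 and 0.908 kb into the gene, was the stronger one. It scored 66.2 and 94.4 in the palbociclib lists, against 24.8 and 44.9 in the activin lists, and ranked 7997 and 4947 with palbociclib and 13054 and 7744 with activin. Its rank was thus far behind the rank of the MYC start in each list. Within PVT1, 1 region was in both palbociclib lists and neither activin list, a pattern held by 5.29% of all regions. It lay at 128813891 to 128814004, 7.89 kb into the gene, with scores of 9.12 and 11.5, and the nearest activin summit was 669 bp away.

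**Figure D4:**
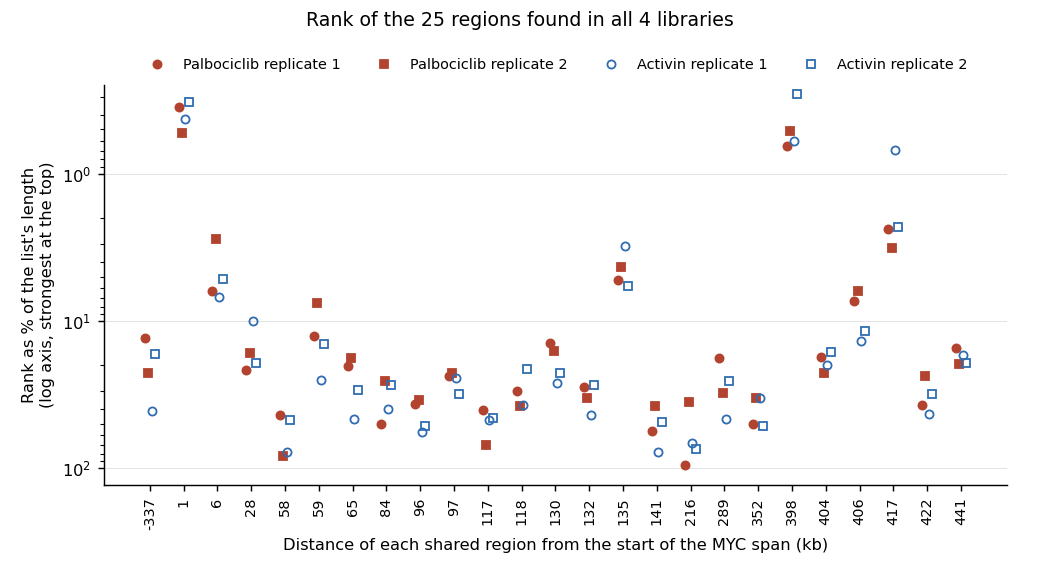
Rank of each of the 25 regions found in all 4 libraries, as a percentage of the length of its own list (log axis, strongest at the top), in order of distance from the start of the MYC span (kb). The regions at 1 and 398 kb lie within the first 1% of every list, and the PVT1 regions between 58 and 352 kb spread down to the weakest ranks.

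Downstream of PVT1, within 86 kb, came a second group of strong summits. The region at 129146419 to 129146427, 32.4 kb after the PVT1 end, had all 4 summits inside 8 bp. Its scores were 310 and 297 in palbociclib replicates 1 and 2, against 226 and 287 in activin replicates 1 and 2. It ranked 411 and 334 in the palbociclib lists and 308 and 155 in the activin lists. Within the locus, the MYC start came first and this region second in replicate 1 of both treatments, and the order was the opposite in replicate 2 of both. A region at 129165459 to 129165483, 51.5 kb after the PVT1 end, scored 197 and 153 with palbociclib and 213 and 141 with activin. The region 40.3 kb after the end scored 108 and 107 with palbociclib, against 50.0 and 54.9 with activin. Those 38.2 and 75.3 kb after the end scored between 27.1 and 52.5 in the 4 lists. Of the 45 downstream summits, 10 (22.2%) were among the strongest 10% of their list, compared with 5 of 101 (4.95%) in PVT1. These totals pool the 4 lists, so a shared region counts again in each list. Per list, the downstream numbers were 3 and 3 with palbociclib and 2 and 2 with activin. In PVT1 they were 1 and 2 with palbociclib, and 1 and 1 with activin.

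The downstream stretch was also where the numbers of summits stood farthest apart in favour of palbociclib. Palbociclib replicates 1 and 2 had 14 and 16 summits, against 7 and 8 in activin replicates 1 and 2 (15.0 ± 1.4 with palbociclib and 7.5 ± 0.7 with activin, SD, n = 2 each), a ratio of 2.0. Both palbociclib counts exceeded both activin counts, as in 16.7% of windows of that width with a summit in any list. The median of these windows was 2 summits in each palbociclib list and 1 in each activin list. The exact permutation p was 0.333 (0.5 after Benjamini-Hochberg adjustment over the 6 counts compared). As a share of the list the values were 0.0222% and 0.0245% with palbociclib, against 0.0136% and 0.0147% with activin. Of the windows of that width with a summit in any list, 13.7% had such separate and higher palbociclib shares. The log2 ratio was 0.72 on that scale and 1.0 on the counts.

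Much of that difference lay in 1 short cluster immediately after PVT1, which was singled out after its values were seen. From 0.911 to 4.95 kb after the PVT1 end, palbociclib replicate 1 listed 5 summits and palbociclib replicate 2 listed 7, while activin replicates 1 and 2 listed 0 each. The summits were weak: their scores ran from 3.11 to 5.88 in palbociclib replicate 1 and from 4.94 to 10.6 in palbociclib replicate 2, with medians of 5.09 and 7.87. The 12 summits ranked from 43.0% to 95.2% of the way down their lists. The nearest activin summits lay 11.5 kb before the cluster in activin replicate 2 and 27.5 kb after it in both activin lists. Without the first 10 kb after PVT1, the downstream counts were 9 and 9 with palbociclib, against 7 and 8 with activin, a log2 ratio of 0.26, and the counts over the whole locus had a log2 ratio of 0.03 in place of 0.22.

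In this cluster, 3 regions were in both palbociclib lists and neither activin list. They started 1.89, 3.06 and 4.83 kb after the PVT1 end, and the nearest activin summit was 12.4 to 15.4 kb away from them. Together with the PVT1 region above, they made 4 of 78 locus regions, or 5.13%, where 5.29% of all regions had that pattern. The locus as a whole was thus near the background in this respect. Bins of 10 kb with a summit in any list numbered 47013. Of these, 164 had no activin summit and at least 2 summits in both palbociclib lists, and 33 had the reverse. With at least 3 summits the numbers were 27 and 7, and with at least 4 they were 5 and 3. The palbociclib lists were longer, and these numbers of bins were not adjusted for that. With at least 5 in both palbociclib lists there were 2 such bins, and 0 of the reverse. The 2 were the bin of this cluster and a bin on chromosome 1 from 46490 to 46500 kb. The cutoff of 5 was the cluster's own lower count, so its bin passed by construction. With every bin border moved by 5 kb, 0 bins passed that cutoff, and a border then fell inside the cluster after PVT1. Over the whole lists, neighbouring summits of 1 list lay as close as 69 to 103 bp, so 1 stretch of enrichment could carry several summits. Within the locus the least spacing was 629 bp in palbociclib replicate 1 and 268 bp in palbociclib replicate 2. Whether the cluster is 1 stretch cannot be told from summits alone.

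**Figure D5:**
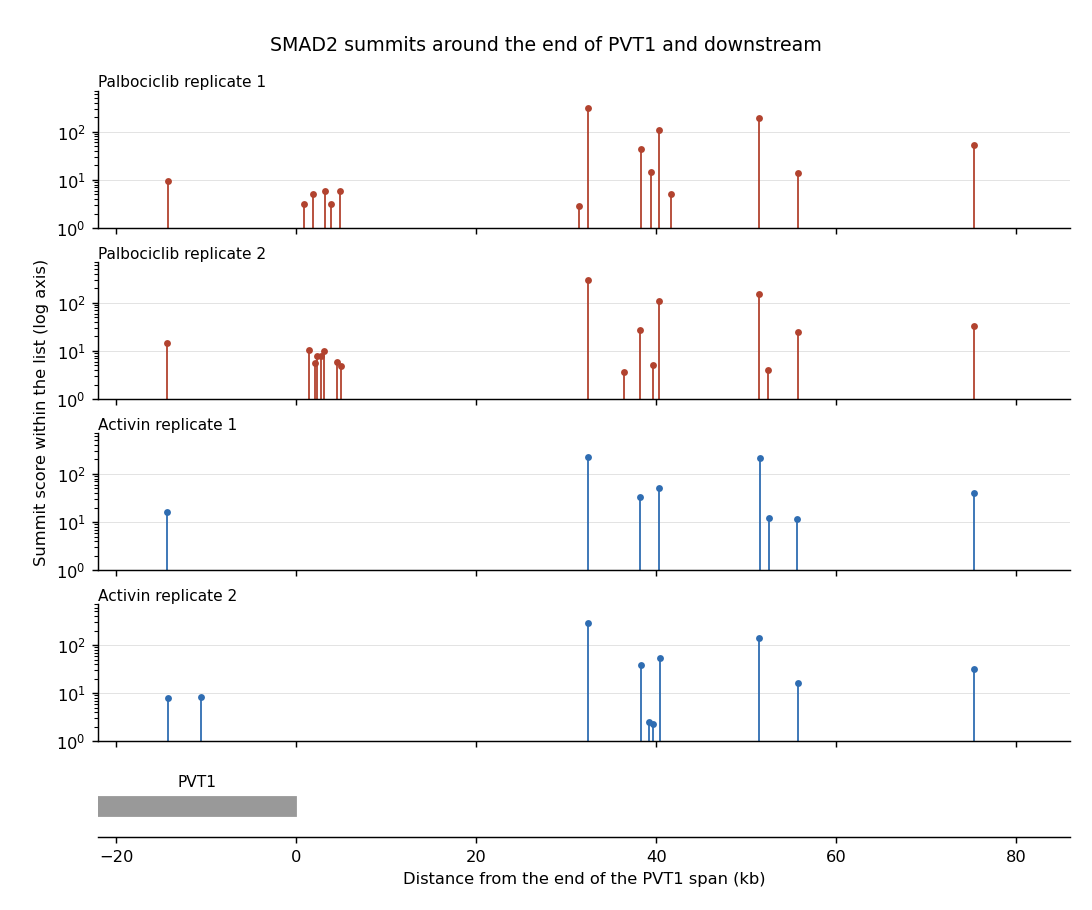
Summits from 22 kb before to 86 kb after the end of the PVT1 span, by distance (kb) and score within each list (log axis). Low stems within 5 kb of the PVT1 end are present in both palbociclib lists, with 5 and 7 summits, and in neither activin list, whereas the tall stems farther on recur in all libraries.

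Regions found in every library were spread over all 5 stretches. Of the 78 locus regions, 25 (32.1%) were in all 4 libraries, where 20.4% of all regions were, and 36 (46.2%) were in a single library, where 50.8% were. The 36 comprised 11 and 11 of palbociclib replicates 1 and 2, and 7 and 7 of activin replicates 1 and 2. Chaining within 200 bp joins summits more easily where they are denser, as in the locus. The part of density in the 32.1% and 46.2% was not tested. By stretch, 1 of 5 upstream regions, 1 of 6 at the MYC start, 2 of 5 between the genes, 15 of 41 in PVT1 and 6 of 21 downstream were in all libraries. The summits of such a region spanned a median of 88 bp, against 76 bp over all regions, with a median of 130 bp in PVT1 and 41.5 bp downstream.

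The share of locus summits that another list also held lay above that of the whole list in each ordered pair of libraries. Of 46 palbociclib replicate 1 summits, 33 (71.7%, exact Clopper-Pearson 95% interval 56.5 to 84.0) had a palbociclib replicate 2 summit within 200 bp, and 27 (58.7%, 43.2 to 73.0) an activin replicate 1 summit. Over the whole list those shares were 58.2% and 50.0%. Of 42 activin replicate 1 summits, 32 (76.2%, 60.5 to 87.9) had a palbociclib replicate 2 summit within 200 bp, and 27 (64.3%, 48.0 to 78.4) an activin replicate 2 summit, where the whole list gave 62.2% and 58.0%. Of the 12 ordered pairs, 11 had an interval that included the whole-list share. The exception was activin replicate 2 found in palbociclib replicate 2, with 31 of 41 summits (75.6%, 59.7 to 87.6) and a whole-list share of 59.3%. The intervals cover counting error only, and the ordered pairs reuse the same summits. Summits were also denser in the locus, at 41 to 51 per Mb in the 4 lists, against 17.5 to 22.2 over all chromosomes. A match within 200 bp is easier to reach where summits are denser, and the part of density in these shares was not tested.

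The 1-Mb windows most like the locus by their counts in the 4 lists lay on other chromosomes. The nearest was on chromosome 2 from 20.2 Mb, with 47 and 50 summits in palbociclib replicates 1 and 2, and 42 and 44 in activin replicates 1 and 2. The next were on chromosome 1 from 200.2 Mb, with 49 and 51 in the palbociclib lists and 43 and 39 in the activin lists, and on chromosome 6 from 149.2 Mb, with 49 and 52 in the palbociclib lists and 44 and 40 in the activin lists. As a share of the list, the locus held 0.0731% and 0.0782% with palbociclib and 0.0815% and 0.0756% with activin, and the groups overlapped (exact permutation p = 0.667).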

How the data were processed

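Each deposited file lists the summits of 1 library on hg19 with a score, read as −log10 of the q-value because the lowest score, 1.31, lies just above 1.30, the −log10 of 0.05. The submitters' processing notes name Bowtie 1.1.0, Picard and MACS2 2.0.9. Settings are not stated in the sources used here. The lists are per library, and each was used as 1 sample. Only chromosomes 1 to 22 and X were used, and summits of all libraries no more than 200 bp from the next were chained into regions, each credited to the libraries with a summit inside. The MYC start was taken as 5 kb on each side. Counts over 4 libraries were compared with an exact two-sided permutation test, whose smallest p is 0.333, so none can pass 0.05. Percentages beside counts of summits come from windows of equal width tiled over the genome that held a summit in any list. Windows without a summit were left out, and the windows were not matched to the locus in density of summits. The code was tested on simulated data. Named regions were the best-ranked shared regions of each stretch, group-specific regions, nearest summits, fullest bins, widest gaps and most similar windows. The window, members and rules were chosen with earlier results of these data known. Depth is unknown. No sequence is shown. Python 3.11.15, numpy 2.4.6, pandas 2.3.3, scipy 1.17.1 and matplotlib 3.10.9 were used.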

Additional observations from a re-analysis of the deposited data

How the results depend on the processing

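The alternatives for the 2 stretches beside PVT1 and the omission of the 10 kb after PVT1 were chosen after seeing the data. Of 93 alternative values, 77 kept their direction or stayed within 1.5 times the main count. The log2 ratio of palbociclib to activin summits in the locus (0.22) was -0.054 as a share of the list, and that in PVT1 (0.20) was -0.079 as a share of the list and -0.064 at equal list lengths. Both scales take account of the longer palbociclib lists. Between the genes (-0.26) it was 0.32 with scores of at least 5. That cutoff left out the activin summits with scores of 3.71 in replicate 1 and 2.94 in replicate 2. The counts were then 3 and 2 with palbociclib, and 2 and 2 with activin. Without each library in turn the log2 ratios ranged from 0.15 to 0.30 in the locus, -1.81 to -0.22 upstream, -1.0 each time at the MYC start, -0.58 to 0.0 between the genes, 0.15 to 0.25 in PVT1 and 0.90 to 1.10 downstream. Omitting palbociclib replicate 2 gave the upstream -1.81, and omitting palbociclib replicate 1 the -0.22. Regions in both palbociclib lists only (4) numbered 1 with a gap of 100 bp and 1 with a gap of 1000 bp, and 6 to 15 without each library. Regions in both activin lists only (1) numbered 2 at equal list lengths and 1 to 9 without each library, because 1 list then stands for its whole group. Regions in all libraries (25) numbered 24 to 29 without each library, 21 to 27 with the other gaps, and 23 both with scores of at least 5 and at equal list lengths. Under the replicate block, which compares libraries of the same number, 19 and 11.5 regions on average were in the palbociclib or the activin library alone, 29.5 were in both, and the downstream log2 ratio was 1.0. Deviations of same-numbered libraries in rank correlated at -0.08 over 23476 regions, which gave no sign of pairing. The cluster after PVT1 held 3 and 7 palbociclib summits at equal list lengths, 3 and 6 with scores of at least 5, and 0 activin summits in both. Summits without reads limit every count.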
